A study of Homo sapiens and Mus musculus with 16 samples.

Results

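The transcripts described here encode the core of the P-body and of the decapping machinery. They are the 10 genes LSM14A, DDX6, EDC3, EDC4, DCP1A, DCP1B, DCP2, PATL1, EIF4ENIF1 and XRN1. They were chosen by symbol and by no cutoff on a measured value, though with earlier results of these data known. All 10 were found among the 22286 genes of the human table and, ignoring case, among the 15881 genes of the mouse table. Each was measured in sorted P-bodies and in cytoplasm of 4 cell types, with 2 libraries per fraction and 16 libraries in all.

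P-bodies are cytoplasmic condensates of untranslated mRNA and RNA-binding proteins. Decapping removes the 5′ cap of an mRNA, after which the transcript can be digested from its 5′ end, and many of the proteins that carry out or promote this step gather in P-bodies together with translational repressors. DDX6, LSM14A and EIF4ENIF1 (also called 4E-T) are known to be needed for P-bodies to form in human cells. The measurement here is of the mRNAs that encode these proteins, and not of the proteins themselves.

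In P-body-seq, particles carrying GFP-tagged LSM14A are sorted from lysed cells, and their RNA is sequenced beside an aliquot of the fraction that entered the sorter, which is called cytoplasm and still holds its P-bodies. The HEK293T samples came from the human embryonic kidney line HEK293T-LSM14a-GFP. Liver bud progenitors and d20 neurons, at day 20 of differentiation, were both made from UCLA4-LSM14a-GFP, a line of human embryonic stem cells, and the mouse ES cells (mESC) were labelled as the line KH2-LSM14a-GFP in serum and LIF. For mouse ES cells the methods instead describe the line v6.5 in 2i and LIF, and which applies to these libraries is not given in the sources used here. All groups therefore carried the tagged LSM14A, and no group was untagged. According to the methods, the HEK293T and mouse ES cells received the tagged gene in a lentiviral vector with an EF1a promoter, and the human ES cells at the AAVS1 locus in a tet-inducible vector. The HEK293T and mESC libraries were total RNA, made with random primers, and those of neurons and liver bud progenitors were polyA RNA, so RNA type and cell type cannot be told apart when the first pair of cell types is set against the second.

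Libraries held between 6368953 and 17972284 counts. The Spearman rho of replicate libraries over genes was 0.962 to 0.988, and 0.915 for the neuron P-body pair. Ribosomal RNA genes took 3.09% to 13.4% of the counts in P-body libraries and 9.63% to 24.9% in cytoplasm libraries, and 4 nuclear RNAs (RN7SK, SCARNA2, MALAT1, NEAT1) summed to 1892 to 3140 CPM in human P-body libraries and 3704 to 9738 CPM in human cytoplasm libraries. The part of nuclear RNA in the results was not tested. All 7 neuronal markers exceeded a mean of 20 CPM (counts per library, scaled to one common total) in neuron cytoplasm, and all 6 markers of the naive mouse ES list did so in mESC. That list is not specific to the naive state. It includes Pou5f1 and Nanog, and 4 of its genes (POU5F1, NANOG, ZFP42, TBX3) exceeded 20 CPM in liver bud cytoplasm as well. The 4 neural progenitor markers summed to 541 to 552 CPM in neuron cytoplasm and to 916 to 1017 CPM in neuron P-bodies. The liver bud progenitor label was only partly borne out by marker genes. APOB stood at 310 and 289 CPM in the cytoplasm libraries of these cells, HNF4A at 40.0 and 37.8 CPM and AFP at 8.16 and 7.92 CPM, while ALB had 0 counts in both, which allows up to 0.471 and 0.403 CPM. The 5 pluripotency markers, POU5F1, NANOG, L1TD1, LIN28A and DPPA4, all exceeded 20 CPM there and summed to between 1378 and 1409 CPM, and to between 2388 and 2409 CPM in P-bodies, where the 7 hepatic markers summed to between 189.7 and 200 CPM against 415 to 432 CPM in cytoplasm. These cells are called by their label below, and the part of these marker differences in the results was not tested.

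The members differ in base composition and length, and the coding sequences with the highest and the lowest share of G and C are shown because the members' enrichment is set beside base composition further on. Each line is 30 bases from the middle of the coding sequence, from GENCODE 44 on hg38, 5′ to 3′ on the coding strand, with G and C in capitals.
EDC4, coding bases 2104 to 2133: aCtGCCaCCtCtGCaCtGtCCCtGGaGCtG
EDC3, coding bases 763 to 792: CCCattGtCtatCGaCGGatCataGtGCCC
DCP2, coding bases 631 to 660: GatatGaCCCCCaaatCCaaaCttGGtttG
XRN1, coding bases 2560 to 2589: CCtCtGaGaaGtatGGtCtttatGCtGGGa
The windows hold 19, 16, 13 and 14 G or C bases of 30, and the whole coding sequences 59.5%, 52.0%, 41.1% and 39.9%.

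The first question was which mRNAs P-bodies hold in the different cell types. Of the 10 members, 8 were enriched in P-bodies and 2 depleted in neurons (edgeR quasi-likelihood test, Benjamini-Hochberg adjusted p under 0.05 over all genes tested), where 14.6% of all genes tested were enriched and 14.1% depleted. In mESC 8 were enriched, 1 was depleted and 1 did not pass, against 25.8% and 20.6% of all genes tested. In HEK293T 6 were enriched and 4 depleted, against 19.3% and 22.8%, and in liver bud progenitors 5 were enriched, 3 depleted and 2 did not pass, against 21.4% and 17.1%. All genes tested, here and below, include genes with few counts, whereas nearly all members averaged 20 CPM or more. These shares are therefore not matched for level, and the share called among genes averaging 20 CPM or more is not given. With library size alone the members enriched and depleted were 8 and 1 in neurons, 5 and 2 in mESC, 5 and 4 in HEK293T and 4 and 3 in liver bud progenitors, and the split of all genes called moved from 3220 enriched and 3123 depleted to 3839 and 2356 in neurons, from 4104 and 3271 to 2591 and 6609 in mESC, and from 4708 and 3747 to 3822 and 4850 in liver bud progenitors. DCP1A, DCP2 and XRN1 were enriched in all 4 cell types, and EDC4 was depleted in all 4, where 10.2% and 5.26% of the 12616 genes tested in all 4 were enriched or depleted throughout (mouse symbols matched ignoring case). LSM14A and DDX6 were depleted in HEK293T and enriched in the other 3, and PATL1 was depleted in liver bud progenitors and enriched elsewhere. Of the 12616 genes, 14.4% were likewise called in opposite directions in different cell types. With library size alone LSM14A did not pass in liver bud progenitors, and PATL1 did not pass in HEK293T or mESC.

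The median log2 change of P-body over cytoplasm over the 10 members was 1.22 in neurons, 0.67 in mESC, 0.26 in HEK293T and 0.21 in liver bud progenitors. Over all genes tested the median was 0.19, -0.11, -0.01 and -0.09 in the same order, and over genes averaging 20 CPM or more it was -0.15, 0.27, 0.25 and 0.32. In HEK293T and liver bud progenitors the members' median thus lay near or below that of the genes with 20 CPM or more. Some members called enriched stood near the middle of those genes. PATL1 and XRN1 exceeded 46.5% and 54.7% of them in HEK293T, and 57.5% and 58.5% in mESC. LSM14A and DCP1A exceeded 48.0% and 53.6% in liver bud progenitors. The highest were DCP1A in HEK293T, at 99.0%, and DCP2 in neurons, at 98.3%. Log2 changes here are TMM-normalized, and TMM moved the median of all genes, relative to scaling by library size alone, by 0.40 in mESC, 0.18 in liver bud progenitors, 0.13 in HEK293T and -0.16 in neurons. Values in CPM carry no such scaling, so in mESC equal CPM in both fractions corresponds to a log2 change near 0.40. Whether the libraries of both fractions overlap is judged below in CPM. The share of all genes without such overlap is not given.

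**Figure D1:**
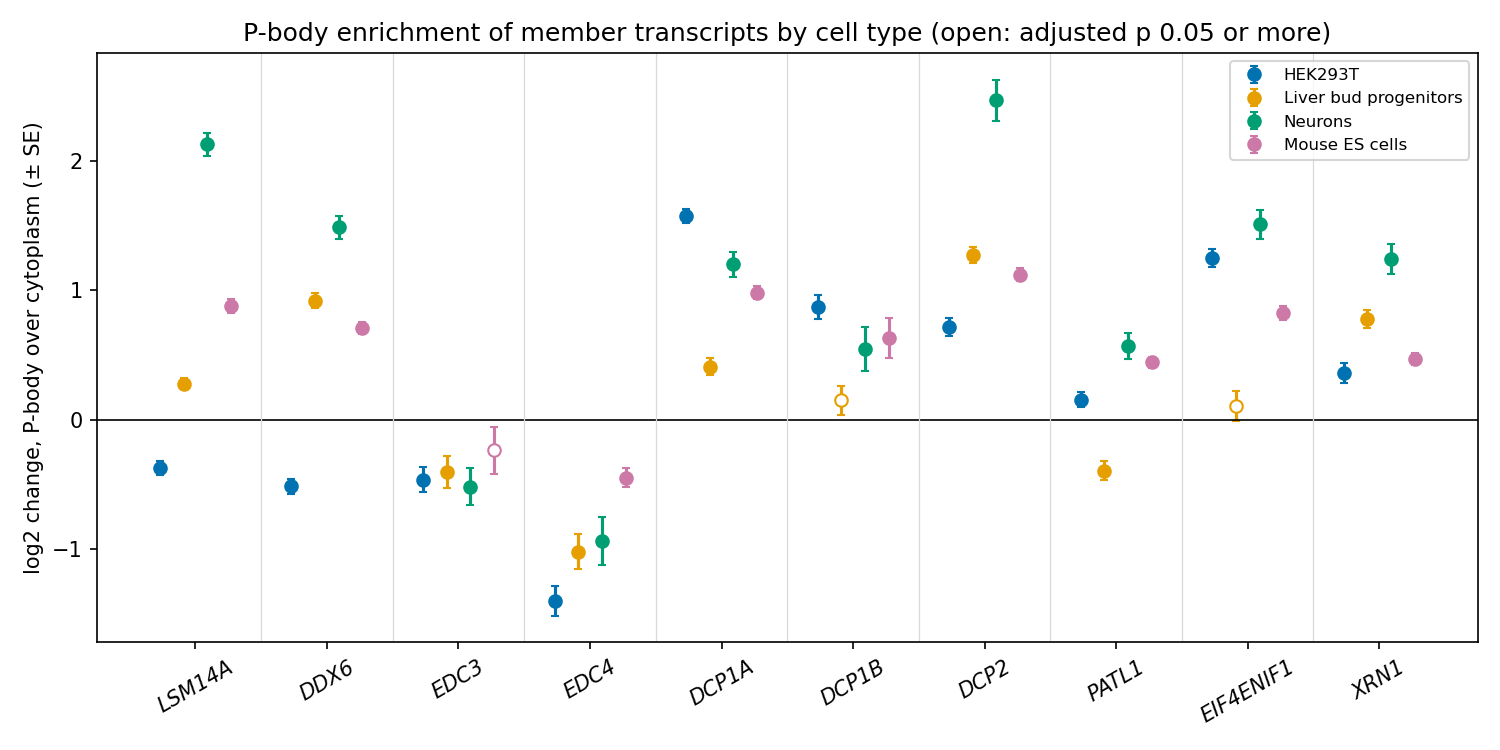
Log2 change of P-body over cytoplasm (vertical axis, TMM-normalized, edgeR) for each of the 10 members in HEK293T, liver bud progenitors, neurons and mESC; bars are the standard error of the fit over 4 libraries per cell type, and open symbols did not pass an adjusted p of 0.05. EDC3 and EDC4 lie below 0 in every cell type, while LSM14A ranges from -0.37 in HEK293T to 2.13 in neurons.

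LSM14A, the scaffold and translational repressor that carries the tag, had, with DCP2, the widest range of cytoplasmic levels over the cell types. The gene lies at chr19:34172504-34229288 on the plus strand (hg38). In neurons its P-body libraries held 664.5 and 676 CPM and its cytoplasm libraries 129 and 145 CPM, a log2 change of 2.13 ± 0.09 (SE, adjusted p = 3.93e-09). Liver bud progenitors, from the same tagged parent line, had 1701 and 1695 CPM in P-bodies and 1552 and 1632 CPM in cytoplasm. The fractions did not overlap in either cell type, but in liver bud progenitors the log2 change was 0.28 ± 0.04 (adjusted p = 8.59e-08), and with library size alone it was 0.09 with an adjusted p of 0.109. HEK293T had the opposite order, with 359.8 and 361 CPM in P-bodies below 508 and 514 CPM in cytoplasm, a log2 change of -0.37 ± 0.05 (adjusted p = 2.38e-08). Mouse Lsm14a was at 255 and 259 CPM in P-bodies and 199 and 170.4 CPM in cytoplasm, a log2 change of 0.88 ± 0.06 (adjusted p = 1.84e-12).

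The cytoplasmic LSM14A level ran from 1592 CPM ± 56.8 (SD, n = 2) in liver bud progenitors over 511 ± 4.67 in HEK293T and 185 ± 20.1 in mESC to 137 ± 11.6 in neurons, 11.6 times between the ends, and neighbours in this order did not overlap. Counts from the tagged copy and from the cell's own gene were not separated in the table and cannot be told apart. Of the 31-base words of the human LSM14A coding sequence, 7.2% also occur in the mouse transcript, and the species of the tagged cDNA is not given in the sources used here.

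DDX6, the DEAD-box RNA helicase that represses translation and promotes decapping (chr11:118747763-118791164, minus strand), showed the same directions as LSM14A. HEK293T P-body libraries held 262 and 259 CPM and cytoplasm libraries 417 and 397 CPM, a log2 change of -0.52 ± 0.06 (adjusted p = 1.01e-11). In neurons 603 and 674 CPM in P-bodies stood against 190.0 and 216 CPM in cytoplasm, a log2 change of 1.49 ± 0.09 (adjusted p = 7.46e-08). Neither pair of fractions overlapped. The liver bud progenitor libraries had 589 and 573 CPM in P-bodies and 354 and 344 CPM in cytoplasm, with a log2 change of 0.92 ± 0.05 (adjusted p = 2.84e-23), and mESC had 380.3 and 360.2 CPM against 308 and 292 CPM, with 0.71 ± 0.05 (adjusted p = 1.93e-12). In neuron P-bodies DDX6 was the second most abundant member per length, at 104 CPM per kb, after LSM14A at 195 CPM per kb.

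EIF4ENIF1, the partner of the cap-binding protein eIF4E that represses translation (chr22:31436977-31496108, minus strand), split the cell types. Its P-body libraries held 217 and 207 CPM in HEK293T, against 91.8 and 103 CPM in cytoplasm, for a log2 change of 1.25 ± 0.07 (adjusted p = 6.01e-24). Neurons had 176 and 178 CPM against 55.2 and 55.6 CPM, for 1.51 ± 0.11 (adjusted p = 4.79e-07). Those fractions stood far apart, whereas in liver bud progenitors the libraries overlapped, with 37.4 and 41.7 CPM in P-bodies and 43.8 and 40.1 CPM in cytoplasm. The liver bud log2 change of 0.10 ± 0.12 did not pass (adjusted p = 0.545). In mESC, 158 and 159.8 CPM stood above 117 and 120.0 CPM, a log2 change of 0.83 ± 0.06 (adjusted p = 6e-12).

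DCP2, the enzyme that cleaves the cap (chr5:112976702-113022195, plus strand), was enriched in every cell type. Neuron libraries held 94.3 and 113 CPM in P-bodies and 15.6 and 17.9 CPM in cytoplasm, a log2 change of 2.47 ± 0.16 (adjusted p = 1.48e-07), higher than that of 98.3% of genes with 20 CPM or more. Liver bud progenitors had 425 and 418 CPM against 204 and 192 CPM, and a log2 change of 1.28 ± 0.06 (adjusted p = 4.79e-28). Each P-body library lay above each cytoplasm library of its cell type. HEK293T libraries stood at 161 and 173 CPM against 115 and 108 CPM, with a log2 change of 0.71 ± 0.07 (adjusted p = 1.01e-13), and mESC libraries at 364.5 and 368 CPM against 215 and 229.5 CPM, with 1.12 ± 0.05 (adjusted p = 4.38e-16). The mean cytoplasmic level was 13.3 times higher in mESC, at 222 CPM, than in neurons, at 16.7 CPM.

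DCP1A and DCP1B are activators that bind the decapping enzyme. DCP1A (chr3:53283429-53347586, minus strand) had its highest level in HEK293T P-bodies, at 817 and 790.0 CPM, against 292 and 298 CPM in cytoplasm, a log2 change of 1.58 ± 0.05 (adjusted p = 1.7e-33) that exceeded 99.0% of genes with 20 CPM or more. Neurons had 379.9 and 354 CPM against 141 and 144 CPM, a log2 change of 1.20 ± 0.09 (adjusted p = 7.15e-07). The fractions did not overlap in either cell type, nor did they in the remaining ones, where the gap was smaller. Liver bud progenitors had 205 and 204.5 CPM against 171.5 and 179 CPM, with 0.41 ± 0.07 (adjusted p = 5.87e-07), and mESC had 234 and 235 CPM against 155 and 159.6 CPM, with 0.98 ± 0.05 (adjusted p = 2.35e-14).

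DCP1B (chr12:1946053-2004535, minus strand) was the less abundant of the pair in every cell type, per length as well. It was enriched in HEK293T, with 89.9 and 74.7 CPM against 47.6 and 50.7 CPM and a log2 change of 0.87 ± 0.09 (adjusted p = 1.97e-12), and in mESC, with 17.1 and 17.4 CPM against 15.1 and 14.3 CPM and 0.63 ± 0.15 (adjusted p = 0.00149). With library size alone the mESC log2 change was 0.23 with an adjusted p of 0.206. Neurons had 43.4 and 46.3 CPM against 26.5 and 28.3 CPM, a log2 change of 0.55 ± 0.17 (adjusted p = 0.0303) that no longer passed without cytoplasm replicate 1 (adjusted p = 0.254) or replicate 2 (adjusted p = 0.209). In liver bud progenitors the fractions overlapped, at 44.1 and 41.0 CPM against 43.8 and 43.5 CPM, and the log2 change of 0.15 ± 0.11 did not pass (adjusted p = 0.33). No 31-base word of the DCP1A transcript occurs in that of DCP1B.

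EDC4, the large scaffold that joins the decapping enzyme to its activators (chr16:67873052-67884499, plus strand), was depleted from P-bodies throughout. HEK293T libraries held 20.5 and 18.9 CPM in P-bodies and 52.7 and 61.1 CPM in cytoplasm, a log2 change of -1.40 ± 0.12 (adjusted p = 1.98e-16). Liver bud progenitors had 22.3 and 18.0 CPM against 43.96 and 48.9 CPM, a log2 change of -1.02 ± 0.13 (adjusted p = 8.62e-10). In every cell type both P-body libraries lay below both cytoplasm libraries. The neuron libraries were the most spread, at 44.3 and 32.7 CPM against 72.2 and 59.1 CPM, with a log2 change of -0.94 ± 0.19 (adjusted p = 0.00188), and mESC had 50.6 and 53.6 CPM against 93.0 and 95.0 CPM, with -0.45 ± 0.07 (adjusted p = 1.86e-05). Per length EDC4 was the least abundant member in P-bodies of all 3 human cell types, between 4.13 and 8.09 CPM per kb. Of the 31-base words of its human transcript, 23.4% also occur in an annotated gene, ENSG00000263126, that has no row in the count table.

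EDC3, another decapping scaffold and enhancer (chr15:74630558-74696292, minus strand), had 44.3 and 40.8 CPM in HEK293T P-bodies against 65.6 and 62.5 CPM in cytoplasm, a log2 change of -0.46 ± 0.09 (adjusted p = 3.46e-05). Liver bud progenitors had 26.9 and 29.4 CPM against 43.3 and 41.6 CPM, and a log2 change of -0.40 ± 0.12 (adjusted p = 0.00532), which did not pass without P-body replicate 1 (adjusted p = 0.0754) or with DESeq2 (adjusted p = 0.0547). Neurons had 48.9 and 52.9 CPM against 65.9 and 64.1 CPM, and a log2 change of -0.52 ± 0.14 (adjusted p = 0.0142). The neuron value did not pass without cytoplasm replicate 1 (adjusted p = 0.175), without cytoplasm replicate 2 (adjusted p = 0.062) or with library size alone (adjusted p = 0.0973). Mouse Edc3 was low, at 8.36 and 8.65 CPM against 12.4 and 14.1 CPM, and its log2 change of -0.24 ± 0.18 did not pass (adjusted p = 0.293), whereas with library size alone it was -0.64 with an adjusted p of 0.00361. In CPM the P-body libraries lay below the cytoplasm libraries in all 4 cell types. In mESC the log2 change of all genes tested had a median of -0.51 with library size alone. Exons of CLK3 on the opposite strand overlap 9.8% of the EDC3 exonic bases in human and 22.5% in mouse, and reads in the overlap cannot be assigned without strand.

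PATL1, the protein that bridges DDX6, the LSM1-7 ring and the decapping enzyme (chr11:59636716-59669037, minus strand), was the member whose direction turned in liver bud progenitors. Its libraries there held 105 and 106.5 CPM in P-bodies and 170.5 and 147 CPM in cytoplasm, a log2 change of -0.39 ± 0.08 (adjusted p = 1.36e-05). In neurons 215 and 193 CPM in P-bodies lay above 122 and 124 CPM in cytoplasm, a log2 change of 0.57 ± 0.10 (adjusted p = 0.00106). HEK293T and mESC libraries overlapped in CPM. HEK293T had 258 and 263 CPM against 249 and 263 CPM, with a log2 change of 0.16 ± 0.06 (adjusted p = 0.0272), which did not pass without P-body replicate 1 (adjusted p = 0.114), P-body replicate 2 (adjusted p = 0.184) or cytoplasm replicate 1 (adjusted p = 0.0513), with library size alone (0.03, adjusted p = 0.791) or with the replicate number as a block (adjusted p = 0.0651). In mESC, 328 and 331 CPM stood against 333 and 308 CPM, and the log2 change of 0.44 ± 0.04 (adjusted p = 1.07e-08) was 0.04 with library size alone (adjusted p = 0.476).

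XRN1, the exonuclease that digests decapped mRNA from the 5′ end (chr3:142306607-142448062, minus strand), had its largest log2 change in neurons. Neuron libraries held 171 and 183 CPM in P-bodies and 61.2 and 72.5 CPM in cytoplasm, a log2 change of 1.24 ± 0.12 (adjusted p = 3.34e-06). Liver bud progenitors had 226 and 220.5 CPM against 152 and 144 CPM, with 0.78 ± 0.07 (adjusted p = 1.15e-15). HEK293T had 114 and 113 CPM against 102 and 90.9 CPM, with 0.36 ± 0.07 (adjusted p = 3.73e-05). The fractions overlapped in mESC, at 268 and 263 CPM against 266 and 240.0 CPM, and the log2 change of 0.47 ± 0.05 (adjusted p = 2.15e-08) was 0.07 with library size alone (adjusted p = 0.268).

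**Figure D2:**
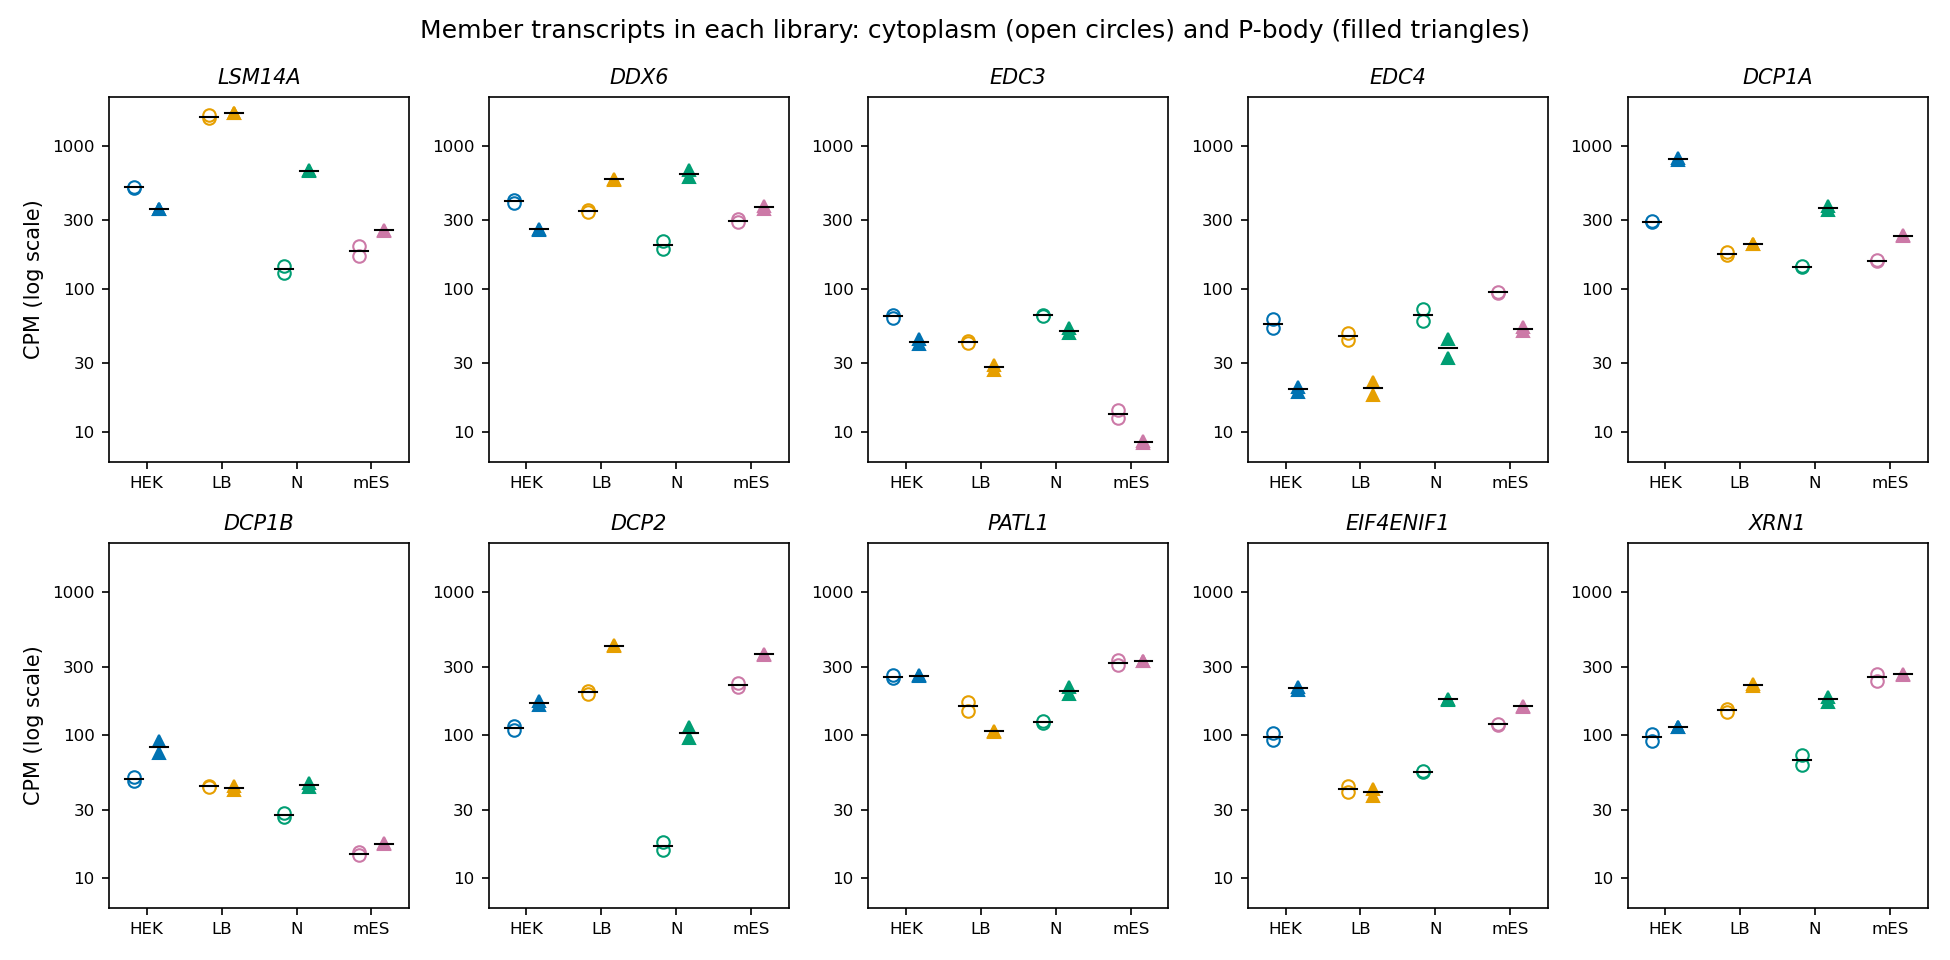
CPM (vertical axis, log scale, the same in each panel) of the 10 members in each of 16 libraries; open circles are cytoplasm, filled triangles P-body, horizontal bars the mean of 2 libraries, and HEK, LB, N and mES stand for HEK293T, liver bud progenitors, neurons and mouse ES cells. The mean of LSM14A in liver bud progenitors is 1592 CPM in cytoplasm and 1698 CPM in P-bodies, and that of DCP2 in neuron cytoplasm is 16.7 CPM.

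Summed over the 10 members, P-body libraries of neurons held 2441 and 2505 CPM and cytoplasm libraries 878 and 927 CPM. The sums were 3383 and 3347 CPM against 2779 and 2813 CPM in liver bud progenitors, 2342 and 2300.0 CPM against 1940 and 1947 CPM in HEK293T, and 2063 and 2056 CPM against 1713.5 and 1642.5 CPM in mESC. LSM14A, with its tagged copy not separated, made up a mean of 1698 CPM of the liver bud sums in P-bodies and 1592 CPM in cytoplasm. LSM14A had the highest level per length in cytoplasm of the 3 human cell types, at 464 CPM per kb in liver bud progenitors, 149 in HEK293T and 39.9 in neurons, and PATL1 had it in mESC, at 76.0 CPM per kb against 62.7 for Lsm14a. The length is that of the annotated transcript, which the tagged copy need not share.

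Whether enrichment differed between the human cell types was tested as an interaction over 8 libraries. TMM was fitted anew on those 8, so a tested difference is not the exact difference of the log2 changes given above. Neurons against liver bud progenitors, both labelled polyA RNA and derived from the same parent line, gave 7 members with higher enrichment in neurons and 0 with lower, where 9.21% and 8.5% of all genes tested passed in those directions. With library size alone 8 members were higher and 0 lower, and the split of all genes called moved from 2050 higher and 1892 lower to 3520 and 940. At an unadjusted p under 0.05 none of the 10 was lower either, and DESeq2 also called 0 lower. The largest differences of log2 changes were 1.84 ± 0.09 for LSM14A (adjusted p = 5.28e-09), 1.40 ± 0.16 for EIF4ENIF1 (adjusted p = 1.6e-05) and 1.19 ± 0.14 for DCP2 (adjusted p = 1.96e-05). PATL1 followed with 0.96 ± 0.14, DCP1A with 0.78 ± 0.12 and DDX6 with 0.56 ± 0.10. The DDX6 difference was 0.37 without neuron P-body replicate 2 (adjusted p = 0.0053).

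XRN1 passed at 0.46 ± 0.12 (adjusted p = 0.0179), but of the 8 fits that left out a library 6 gave it an adjusted p of 0.05 or above, from 0.05 without neuron cytoplasm replicate 2 to 0.188 without neuron cytoplasm replicate 1. The others were 0.0699 and 0.0822 without liver bud P-body replicate 1 or 2, 0.0852 without liver bud cytoplasm replicate 1 and 0.0826 without neuron P-body replicate 2, where the difference was 0.30. EDC3 at -0.12 ± 0.18, EDC4 at 0.07 ± 0.26 and DCP1B at 0.39 ± 0.19 did not pass (adjusted p = 0.701, 0.894 and 0.18), but DCP1B passed with library size alone (0.75, adjusted p = 0.0138) and with filterByExpr (0.53, adjusted p = 0.0457). The interaction compares relative shares of RNA, and fewer cells of a type and less RNA per cell cannot be told apart in these bulk libraries.

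HEK293T against liver bud progenitors, which share their liver bud libraries with the comparison above, gave 4 members with higher enrichment in HEK293T and 3 with lower (15% and 12.5% of all genes tested). With library size alone there were 4 higher and 4 lower, and the split of all genes called moved from 3339 higher and 2788 lower to 2510 and 3665. DCP1A was higher by 1.39 ± 0.08 (adjusted p = 4.52e-19), EIF4ENIF1 by 1.38 ± 0.13 (adjusted p = 1.26e-12), DCP1B by 0.95 ± 0.15 (adjusted p = 6.42e-07) and PATL1 by 0.78 ± 0.10 (adjusted p = 1.2e-08). The lower ones were DDX6, at -1.21 ± 0.08 (adjusted p = 3.68e-17), LSM14A, at -0.42 ± 0.07 (adjusted p = 1.74e-06), and DCP2, at -0.33 ± 0.10 (adjusted p = 0.00578). For LSM14A the separate fits gave -0.37 in HEK293T and 0.28 in liver bud progenitors, and for DDX6 -0.52 and 0.92. These lie further apart than the differences tested here. For DCP1A the separate fits gave 1.58 and 0.41, which lie closer together than the tested difference. The DCP2 difference was -0.20 without HEK293T P-body replicate 1 (adjusted p = 0.193) and -0.24 without liver bud cytoplasm replicate 2 (adjusted p = 0.127). XRN1, at -0.19 ± 0.11, did not pass (adjusted p = 0.203), but did so as lower with library size alone (-0.36, adjusted p = 0.00578), with filterByExpr (-0.37, adjusted p = 0.00757) and with ribosomal RNA genes left out (-0.27, adjusted p = 0.0486). The helicase and the tagged scaffold thus had lower enrichment in HEK293T and the activators DCP1A and DCP1B higher.

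HEK293T against neurons gave 1 member higher, DCP1A at 0.52 ± 0.10 (adjusted p = 0.00231), and 4 lower, where 6.19% and 6.35% of all genes tested passed. With library size alone 0 were higher and 7 lower, and the split of all genes called moved from 1379 higher and 1414 lower to 446 and 3328. With ribosomal RNA genes left out 2 members were higher, and 1945 genes against 1072. LSM14A differed by -2.36 ± 0.10 (adjusted p = 1.3e-09), DDX6 by -1.87 ± 0.11 (adjusted p = 6.7e-08), DCP2 by -1.62 ± 0.16 (adjusted p = 9.09e-06) and XRN1 by -0.74 ± 0.15 (adjusted p = 0.00259). The DCP1A difference did not pass with library size alone (0.08, adjusted p = 0.678), while EDC4 (adjusted p = 0.0334), PATL1 (adjusted p = 0.000679) and EIF4ENIF1 (adjusted p = 0.00958) then passed as lower. PATL1 also passed with filterByExpr (adjusted p = 0.0256), and DCP1B passed as higher with ribosomal RNA genes left out (adjusted p = 0.0364). Without neuron P-body replicate 2, EDC4 (-0.53, adjusted p = 0.0489), PATL1 (-0.35, adjusted p = 0.0218) and DCP1B (0.50, adjusted p = 0.0416) passed as well. RNA type differs between the sides of both HEK293T comparisons and cannot be told apart from cell type.

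**Figure D3:**
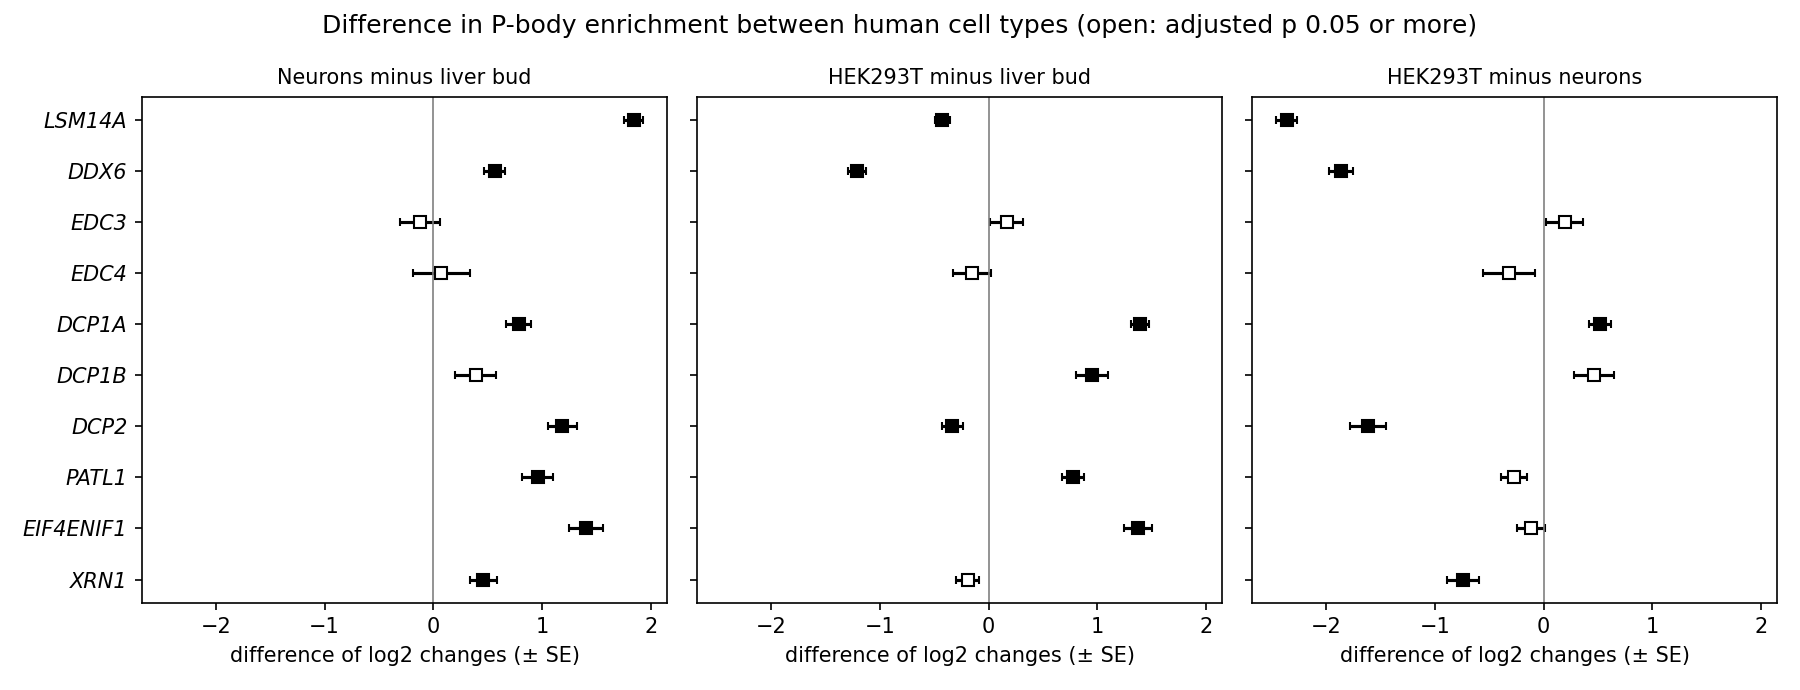
Difference between human cell types in the log2 change of P-body over cytoplasm (horizontal axis, same range in each panel; squares are the edgeR estimate, bars its standard error, open squares an adjusted p of 0.05 or more) for the 10 members. LSM14A, DDX6 and DCP2 lie to the right of 0 in neurons minus liver bud progenitors and to the left in both panels with HEK293T first.

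The cytoplasm itself differed between neurons and liver bud progenitors for 8 of the 10 members, 3 higher and 5 lower in neurons, where 19.2% and 23.7% of all genes tested were higher and lower. There were 3 members higher and 7 lower with library size alone (3421 and 6218 genes), and with ribosomal RNA genes left out 3 and 4. DCP2 differed by -3.31 ± 0.10 (adjusted p = 5.23e-13) and LSM14A by -3.29 ± 0.07 (adjusted p = 4.56e-15), followed by XRN1 by -0.90 ± 0.09 (adjusted p = 4.73e-07) and DDX6 by -0.53 ± 0.07 (adjusted p = 1.31e-05). The scaffold genes EDC3, at 0.87 ± 0.13 (adjusted p = 3.6e-05), and EDC4, at 0.76 ± 0.18 (adjusted p = 0.00237), and the repressor EIF4ENIF1, at 0.66 ± 0.11 (adjusted p = 0.000165), were higher in neurons. DCP1B was at -0.42 ± 0.14 (adjusted p = 0.0205), and did not pass when either liver bud cytoplasm library (adjusted p = 0.0912 and 0.09) or either neuron cytoplasm library (adjusted p = 0.163 and 0.155) was left out, with DESeq2 (adjusted p = 0.0918) or with ribosomal RNA genes left out (adjusted p = 0.119). DCP1A and PATL1, at -0.05 ± 0.08 and -0.11 ± 0.10, did not pass (adjusted p = 0.708 and 0.403), but with library size alone both passed as lower (-0.30 and -0.37, adjusted p = 0.00899 and 0.00658). The cytoplasm libraries that give these differences also enter the neuron and liver bud enrichments above.

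Across the 12 human libraries, cytoplasm and P-body together, the level of LSM14A on the log2 CPM scale was most like that of TEAD1 (Pearson r = 0.984), SENP5 (0.971) and SC5D (0.958) among 6920 genes that averaged 20 CPM or more. DDX6 was most like NDUFS1 (0.929), POLA1 (0.922) and PSMD1 (0.921), and EDC4 was most like SEC24C (0.98), HK1 (0.979) and USP19 (0.978). Among the members the highest value was between DCP1A and DCP1B (0.905), followed by DCP1A with EIF4ENIF1 (0.886) and LSM14A with DCP2 (0.882). EDC3 and DCP2 had the lowest, at -0.821. The 12 libraries come from 3 cell types and 2 fractions and are not independent, so these values describe likeness only.

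The human transcripts of DCP2 and XRN1, at 37.1% and 37.3% G and C, lay at the 4.7th and 5.1st percentile of 20610 genes, and that of EDC4, at 59.8%, at the 85.7th percentile. Over the 10 members, liver bud progenitors gave a Spearman rho of -0.94 between G and C content and log2 change, neurons -0.75, mESC -0.48 and HEK293T -0.20. Over genes averaging 20 CPM or more it was -0.72, -0.69, -0.73 and -0.53 in the same order. In HEK293T LSM14A and DDX6, at 41.6% and 40.0% G and C, were depleted, and EIF4ENIF1 and DCP1B, at 51.7% and 50.7%, were enriched. The remaining members in HEK293T were EDC4 and EDC3, at 59.8% and 53.4%, which were depleted. DCP1A, DCP2, XRN1 and PATL1, at 43.8%, 37.1%, 37.3% and 46.6%, were enriched. In the human transcripts the 3′ UTR was longest for DCP2 (8711 bases) and shortest for DCP1B (153 bases) and EDC4 (351 bases). In the mouse transcripts, used for mESC, it was longest for Dcp2 (7240 bases) and shortest for Xrn1 (218 bases, against 4904 in human). The rho of 3′ UTR length with the log2 change was 0.77, 0.54, 0.39 and 0.03 in the order above. These correlations are over the same 10 points, whose composition and length are linked, and the part of either in the results was not tested.

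**Figure D4:**
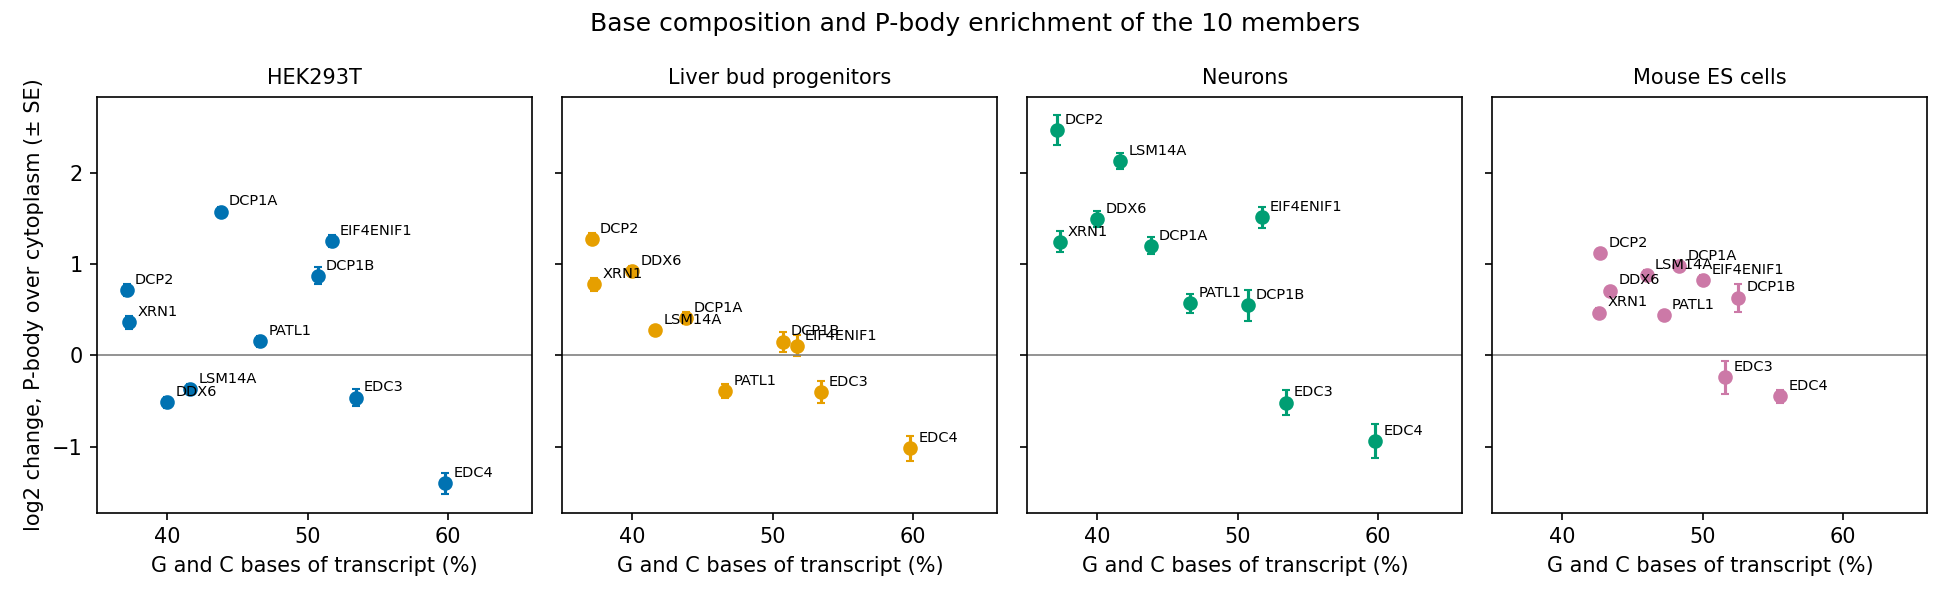
Log2 change of P-body over cytoplasm with its standard error (vertical axis) against the percent of G and C bases in the transcript (horizontal axis) for the 10 members in each cell type, with mouse transcripts for mESC. In liver bud progenitors the points fall along a descending line (rho -0.94), and in HEK293T they do not (rho -0.20).

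Another 21 genes of the same pathway were followed for comparison, covering the LSM1-7 ring, cofactors and other cap hydrolases, paralogues of members, and partners of the cap-binding proteins. In HEK293T 7 were enriched, 9 depleted and 5 did not pass (19.3% enriched and 22.8% depleted over all genes tested), and in liver bud progenitors 9 were enriched, 2 depleted and 10 did not pass (21.4% and 17.1%). Neurons and mESC each had 6 enriched, 2 depleted and 13 that did not pass (14.6% and 14.1% in neurons, 25.8% and 20.6% in mESC). Their median log2 change was 0.13 in HEK293T, 0.31 in liver bud cells, 0.09 in neurons and -0.05 in mESC, beside -0.01, -0.09, 0.19 and -0.11 over all genes tested.

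Of these 21, 4 were enriched in all 4 cell types (10.2% of genes tested in all 4) and none was depleted in all 4 (5.26%). They were CPEB4, which binds cytoplasmic polyadenylation elements, PNRC2, a decapping cofactor, the cap-binding protein EIF4E, and XRN2, the mainly nuclear paralogue of XRN1. CPEB4 had log2 changes of 1.84 ± 0.09 in neurons, 1.31 ± 0.06 in HEK293T, 1.26 ± 0.06 in mESC and 0.89 ± 0.08 in liver bud progenitors. EIF4E ranged from 0.98 ± 0.15 in neurons to 1.70 ± 0.04 in mESC, with 1924 and 1821 CPM in mESC P-bodies against 764 and 760.1 CPM in cytoplasm. PNRC2 ranged from 0.62 ± 0.06 in HEK293T to 1.67 ± 0.05 in mESC, and XRN2 from 0.57 ± 0.05 in mESC to 0.90 ± 0.07 in liver bud progenitors, with the largest adjusted p of the group at 0.00094 for XRN2 in neurons.

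Beside XRN2, the paralogues LSM14B and PATL2 were measured. LSM14B, the paralogue of LSM14A, stood below 20 CPM in every library and passed only in HEK293T, at 0.59 ± 0.23 (adjusted p = 0.0324), a call lost without any one of the 4 libraries (adjusted p from 0.051 to 0.243), with library size alone (adjusted p = 0.108), with DESeq2 (adjusted p = 0.0961) and with all human libraries in a single fit (adjusted p = 0.0509). In mESC it was -0.05 ± 0.17 (adjusted p = 0.822), and with library size alone it passed as depleted (-0.45, adjusted p = 0.0226). PATL2, the paralogue of PATL1, had between 0 and 3 counts in each human library, at or below the floor of 3 counts, so no fold is given. In mESC it had 29 and 44 counts in P-bodies and 35 and 45 in cytoplasm, and its log2 change of -0.17 ± 0.30 did not pass (adjusted p = 0.675).

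Of the 21 pathway genes, 6 were called in opposite directions in different cell types, as were 14.4% of genes tested in all 4, and 4 of these are given. GIGYF1, a partner of the cap-binding protein EIF4E2 in translational repression, was enriched in HEK293T at 0.67 ± 0.11 (adjusted p = 9.44e-07) and depleted in liver bud progenitors at -0.47 ± 0.13 (adjusted p = 0.0022), where it did not pass without cytoplasm replicate 2 (adjusted p = 0.0546). LSM3, of the LSM1-7 ring, was at -0.29 ± 0.09 in HEK293T (adjusted p = 0.00723) and 0.73 ± 0.12 in liver bud progenitors (adjusted p = 5.75e-07). Its HEK293T value did not pass without P-body replicate 1 (adjusted p = 0.0894) or cytoplasm replicate 1 (adjusted p = 0.188), with RLE size factors (adjusted p = 0.0892), with DESeq2 (adjusted p = 0.158) or with all human libraries in a single fit (adjusted p = 0.41). LSM4, of the same ring, was at -1.24 ± 0.18 (adjusted p = 1.59e-08) and 0.72 ± 0.23 (adjusted p = 0.00728) in those cells, and the liver bud value did not pass without cytoplasm replicate 1 (adjusted p = 0.0816), with DESeq2 (adjusted p = 0.0904) or with library size alone (adjusted p = 0.0521). NUDT3, a hydrolase with decapping activity, was at 0.30 ± 0.08 in liver bud progenitors (adjusted p = 0.00223) and -0.41 ± 0.08 in neurons (adjusted p = 0.00227). With library size alone neither NUDT3 value passed (0.11 and -0.25, adjusted p = 0.338 and 0.0769).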

How the data were processed

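RNA of GFP-LSM14A P-bodies and of cytoplasm was measured in 16 libraries, grouped by the labels. The authors deposited raw read counts per gene symbol, as whole numbers that were not normalized. Per the methods, snapTotal-seq reads went through nf-core/rnaseq with salmon and Smart-seq reads through hisat and featureCounts, on refGene with hg38 or mm10, and genes under 10 reads were removed. Which route made which column is not given in the sources used here. Salmon divides reads of near-identical copies, and the 31-base words of a member that other genes in the table share were at most 2.4%. Counting annotated genes outside the table, the share was 23.4% for EDC4, 9.4% for PATL1 and 7.3% for mouse Ddx6. The deposited fold changes and p-values of the authors' own comparisons were not used.

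Counts were tested with the edgeR 4.0.16 quasi-likelihood test in R 4.3.3 (TMM, two-sided, genes with 0 counts throughout left out, adjustment over all genes tested) on the 4 libraries of a cell type, or on 8 for interactions and for the cytoplasm of neurons against liver bud progenitors. The SE is the log2 change divided by the square root of F. Members and lists were chosen with earlier results of these data known. Besides the 10 members, the rule named all paralogues in the pathway list, up to 6 pathway genes called in 1 direction in all 4 cell types, up to 4 called in opposite directions, and the 3 genes most like LSM14A, DDX6 and EDC4 in log2 CPM (prior count 2). Of the opposite-direction genes, the 4 with the smallest larger adjusted p were taken. CPM is counts over the library total and per-kb levels use the transcript with the longest coding sequence (GENCODE 44 for hg38, M21 for mm10), found for 92.5% of the human symbols and 97.6% of the mouse ones.

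Replicate libraries differed by more than sampling noise in all 8 groups (chi-square per gene 2.15 to 24.8). The paper reports at least 2 biological replicates for its large sequencing assays. The labels do not say that replicates came from separate cultures, so p-values measure the spread between these samples, which may be technical. A floor of 3 counts corresponds to 0.167 to 0.471 CPM and covers counting error only. On simulated counts, where 200 genes had a true log2 change of 1.58, edgeR recovered 99% to 100% in the 8 comparisons, with 2 to 13 false calls. Those genes all averaged 20 CPM or more, and all other genes had the same mean share in every library. The simulated spread followed the trend that edgeR itself had fitted, equal in every group. Smaller changes, genes with fewer counts, unequal spread between groups and a shift in composition between fractions were therefore not checked. Alternatives were RLE size factors, library size only, DESeq2 1.42.0, filterByExpr, ribosomal RNA genes left out, a replicate block, all 12 human libraries together and leaving out each library.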

Additional observations from a re-analysis of the deposited data

Results flagged for a closer look

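The enrichment of several members differed between human cell types in the interaction test. In neurons minus liver bud progenitors the difference of log2 changes was 1.84 for LSM14A, 0.56 for DDX6, 0.78 for DCP1A, 1.19 for DCP2, 0.96 for PATL1, 1.40 for EIF4ENIF1 and 0.46 for XRN1. In HEK293T minus liver bud progenitors it was -0.42 for LSM14A, -1.21 for DDX6, 1.39 for DCP1A, 0.95 for DCP1B, -0.33 for DCP2, 0.78 for PATL1 and 1.38 for EIF4ENIF1. In HEK293T minus neurons it was -2.36 for LSM14A, -1.87 for DDX6, 0.52 for DCP1A, -1.62 for DCP2 and -0.74 for XRN1. The 3 comparisons share libraries, so they are not separate evidence.

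In mESC the log2 change of Lsm14a was 0.88 and that of Ddx6 0.71, with both P-body libraries above both cytoplasm libraries, while in HEK293T both P-body libraries lay below both cytoplasm libraries for LSM14A and DDX6. The human and mouse tables were not fitted together, and this difference was not tested.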

How the results depend on the processing

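No called log2 change of a member or named pathway gene changed sign under any alternative. Of 581 values of called changes under alternatives other than leaving out a library, 559 stayed called and 22 did not, 12 of them with library size only. With library size only, members enriched numbered 5 and depleted 2 in mESC (genes 2591 and 6609), members depleted 1 in neurons, genes higher 3520 and lower 940 in neurons minus liver bud progenitors, and in HEK293T minus neurons members higher 0 and lower 7 (genes 446 and 3328). Ribosomal RNA genes left out gave 2 members higher in the last comparison. DESeq2 gave 1803 genes depleted in mESC, and all human libraries together 4936 in neurons. The cause of these shifts was not tested.

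Leaving out 1 library gave 2109 to 4394 genes enriched, 1892 to 4433 depleted and 1 to 2 members depleted in neurons. It gave 1193 to 2772 genes higher and 1160 to 3628 lower in neurons minus liver bud progenitors, and 781 to 2372 higher, 672 to 2499 lower and 1 to 2 members higher in HEK293T minus neurons. A group left with 1 library was assumed to vary like the others. These ranges show how far 2 libraries per group limit the counts.

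Changes that did not pass turned sign as follows. With library size only, in liver bud progenitors DCP1B was -0.0369 and EIF4ENIF1 -0.0823, NUDT3 was -0.0004464 in HEK293T and LSM4 -0.30 in mESC. EDC3 was 0.24 in neurons minus liver bud progenitors, -0.003422 in HEK293T minus liver bud progenitors and -0.24 in HEK293T minus neurons, and with filterByExpr 0.02336 and -0.0168 in the first pair. With ribosomal RNA genes left out, EIF4ENIF1 was 0.02368 in HEK293T minus neurons, and DCP1A 0.08416 and PATL1 0.01727 in the cytoplasm comparison. Without 1 library, LSM14B in liver bud progenitors lay between -0.22 and 0.23. In mESC LSM14B lay between -0.22 and 0.13, LSM4 between -0.0302 and 0.25, PATL2 between -0.53 and 0.15 and NUDT3 between -0.67 and 0.06912. EDC4 lay between -0.27 and 0.23 in neurons minus and between -0.31 and 0.01212 in HEK293T minus liver bud progenitors, and DCP1A between -0.08142 and 0.065 in the cytoplasm comparison.

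Labels number the replicates alike in both fractions. The correlation of replicate differences between fractions was 0.146 in neurons, 0.063 in liver bud progenitors, -0.029 in mESC and -0.113 in HEK293T. Per the methods, P-bodies were sorted from the fraction whose aliquot served as cytoplasm, so samples of equal number may be paired by preparation. The labels do not say so, and these correlations cannot decide it. The main fits did not use the pairing, and the replicate block did. With the replicate block, members enriched were 5 and depleted 4 in HEK293T (PATL1 lost, adjusted p = 0.0651), genes enriched and depleted in neurons were 3353 and 3601, LSM14B in liver bud progenitors was 0.007453, and no other call of a member or named gene was lost. The crossed pairing of the HEK293T numbers, added after seeing the data, gave 4267 genes enriched and 5044 depleted, with 6 and 4 members.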
